A study of Mus musculus with 12 samples.

Results

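The genes described here are 45 markers of red cells and leukocytes: 6 erythroid genes, 10 neutrophil genes, 3 B cell genes, 7 T and NK cell genes, 7 genes shared by many leukocytes or by myeloid cells, and 12 macrophage genes. They were taken from a list of lineage markers, chosen with earlier results of these data known, and found on the array through the RefSeq accession of each probe. All 45 were found, and 43 of them passed the filter on dim probes and belong to the 15230 genes tested. Cd8a and Cd163 did not pass it, and Alas2 and Ngp passed only through the 2 arrays of control glomeruli. After tamoxifen, 9 globin, heme synthesis, neutrophil and lymphocyte genes were called lower in glomeruli, and in cultures expanded from glomeruli many of these genes were not above background while the complement genes C1qa, C1qb and C1qc were higher than in glomeruli.

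The study measured total RNA of mouse glomeruli and of podocyte cultures on 12 one-colour Agilent arrays. All 6 groups, controls included, carry an inducible Cre with floxed alleles of both transcription factor genes Foxc1 and Foxc2, so no group is wild type at these loci. In the labels the number of the second floxed gene changes from sample to sample, and Foxc2 was taken from the title of the series. The promoter that drives Cre, and hence the cells in which the alleles can recombine, is not given in the sources used here. Glomeruli of tamoxifen-treated mice came from 2 numbered mice that were 8 weeks old when they received intraperitoneal injections on 3 days in a row and gave glomeruli on day 7, and glomeruli of control mice came from 2 numbered mice whose agent is given as none, with no vehicle named. Cultures were podocytes expanded from glomeruli of adult mice and kept for 4 days or 7 days with tamoxifen or mock treatment, 2 samples of each. Nothing states that the numbered cultures were separate cultures, so their p-values measure only the spread between these samples. How the glomeruli were isolated, and whether the kidneys were flushed of blood, is not given in the sources used here.

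Blood reaches the glomerulus through its capillary tuft, and red cells and leukocytes held in that tuft contribute their RNA to a preparation of isolated glomeruli. Reticulocytes carry globin and heme synthesis transcripts, neutrophils carry transcripts of antimicrobial and calcium-binding proteins, and lymphocytes carry those of their antigen receptor complexes. Tissue macrophages live beside the tuft, take up dying cells and make the complement component C1q, and they can persist in cultures of kidney cells. In bulk RNA, fewer cells of a type and less RNA per cell cannot be told apart.

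Each level below is the log2 of the processed signal relative to the 75th percentile of its array, so a difference of 1 is a 2-fold difference. Levels of different genes come from different probes and are not set against each other. A gene was called when its adjusted p from limma was under 0.05, where 1 model of the 6 groups took in every array and Benjamini-Hochberg adjustment ran over 15230 genes. "Dim" marks a probe that is not well above background on either array of a group. There its level is only an upper bound, and a fold is given as "at least", the mean of the bright group against the higher of the dim probe's own signal and the lowest signal well above background on each array.

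Between 57.9% and 63.4% of spots were well above background per array, none were saturated, and arrays of the same group correlated at 0.983 to 0.99 over all genes. The targeted genes matched the labels. Foxc2 read -1.12 and -0.19 in glomeruli of tamoxifen-treated mice, against 2.10 and 2.24 in control glomeruli, and fell 7.07-fold (adjusted p = 0.0368). It was at least 139.5-fold lower at day 4 and at least 151.4-fold lower at day 7 in tamoxifen cultures. Foxc1 read 0.92 and 1.09 in glomeruli of tamoxifen-treated mice, against 2.92 and 2.80 in control glomeruli, and was not called in any tamoxifen comparison (adjusted p = 0.627 in glomeruli, 0.141 at day 4 and 0.0566 at day 7). Its culture differences were still large. Over Foxc1 and Foxc2 the median was -7.64 at day 4 and -9.10 at day 7. Each of these genes had an unadjusted limma p under 0.05 on both days. Both array pairs of each tamoxifen comparison lay on 1 slide. Glomeruli, day 4 cultures and day 7 cultures each had a slide of their own, so slide cannot be told apart from tissue or from time.

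In glomeruli, 9 of the 45 members were called lower after tamoxifen and none higher (1.75% of all genes were): the globins Hba-a2, Hbb-bt and Hbb-b2, the heme enzyme gene Alas2, the neutrophil genes Wfdc21, Cxcr2 and Ngp, the B cell gene Ms4a1 and the T and NK cell gene Cd2. Of all genes tested, 2.6% were called in this comparison and 0.854% were called lower. Both arrays of tamoxifen-treated mice lay below both control arrays for 32 members, a pattern held by 27.7% of all genes, and above them for 2 members, against 20% of all genes. The median difference over the 43 tested members was -0.82, and that over all genes was -0.05. Because the members were chosen with earlier results of these data known, these contrasts with all genes are not independent evidence. Among the 9, Alas2 and Ngp entered the test only through their signal in control glomeruli. In contrast, no member was called at day 4 in culture, where 0.21% of all genes were called, and 1 member, Mertk, was called lower at day 7, where 0.972% of all genes were called and 0.519% were called lower.

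**Figure D1:**
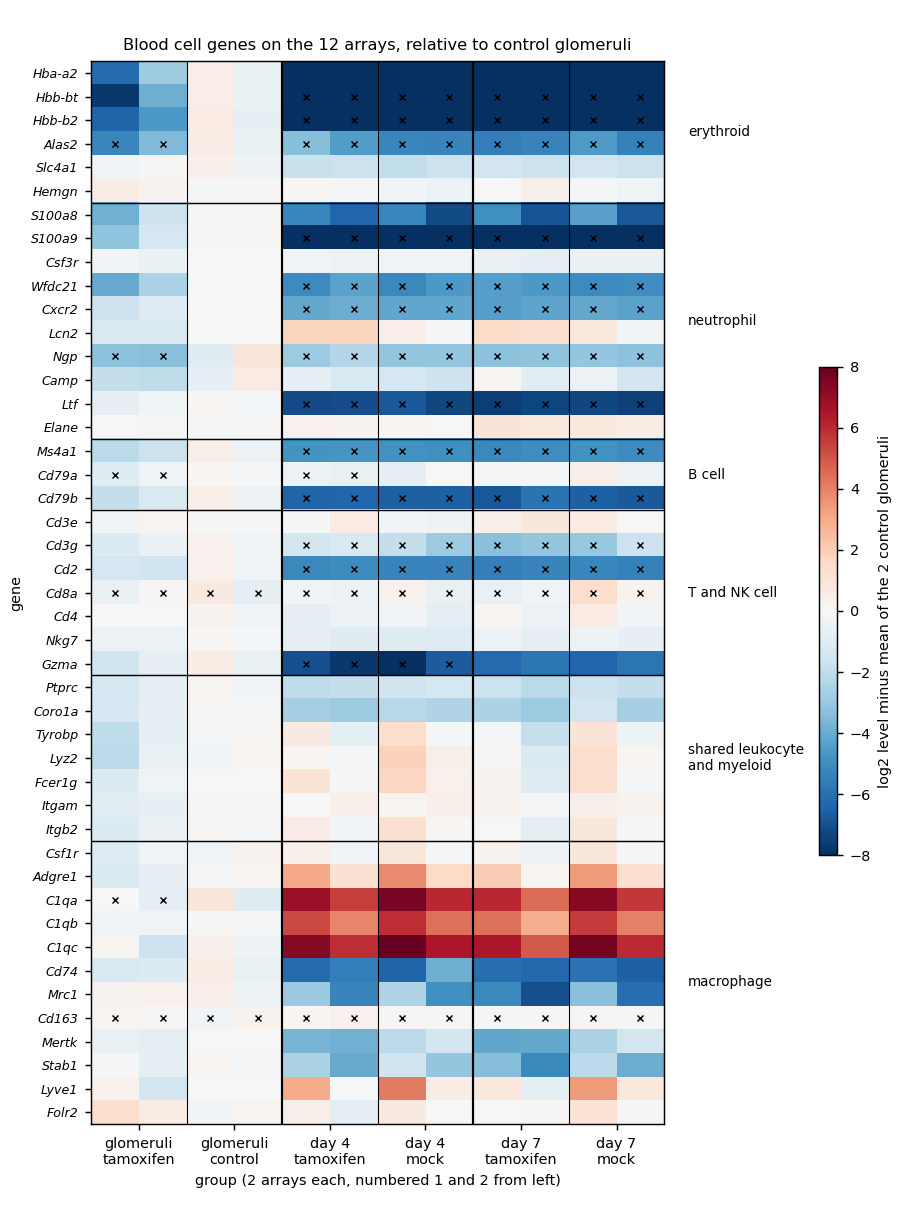
The 45 genes (rows, by lineage) on the 12 arrays (columns, by group), coloured by log2 level relative to the mean of control glomeruli and limited to 8 in either direction. A cross marks a gene with neither array of the group well above background. The globin and Alas2 rows are low in glomeruli of tamoxifen-treated mice and in all cultures, and the 3 C1q rows are high in all 8 culture arrays.

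The erythroid genes gave the largest glomerular differences among the lineages, with a median of -4.42 over their 6 members. Of these, 4 were called lower, as were 0.854% of all genes. The promoters of 3 of them are shown because these genes fell together in glomeruli. Each is the 250 bases before the RefSeq start on build GRCm38.p6, written 5′ to 3′ on the strand of the gene, and capitals mark AGATAA, a sequence read by GATA factors, and CACCC, a sequence read by Krüppel-like factors of red cells, on either strand (the other strand appears as TTATCT and GGGTG). Hba-a2 lies at chr11:32296242-32296491 on the plus strand, Hbb-bt at chr7:103813924-103814173 on the minus strand and Alas2 at chrX:150547167-150547416 on the plus strand.
Hba-a2: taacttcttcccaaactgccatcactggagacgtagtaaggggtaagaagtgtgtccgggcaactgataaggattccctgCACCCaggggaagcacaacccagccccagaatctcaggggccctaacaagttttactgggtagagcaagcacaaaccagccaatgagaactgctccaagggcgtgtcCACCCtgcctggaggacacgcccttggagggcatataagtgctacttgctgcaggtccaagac
Hbb-bt: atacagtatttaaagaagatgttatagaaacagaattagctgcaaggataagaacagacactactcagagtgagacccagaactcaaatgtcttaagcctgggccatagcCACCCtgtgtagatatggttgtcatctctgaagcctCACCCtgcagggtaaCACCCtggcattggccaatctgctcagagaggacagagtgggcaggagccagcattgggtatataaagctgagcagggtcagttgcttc
Alas2: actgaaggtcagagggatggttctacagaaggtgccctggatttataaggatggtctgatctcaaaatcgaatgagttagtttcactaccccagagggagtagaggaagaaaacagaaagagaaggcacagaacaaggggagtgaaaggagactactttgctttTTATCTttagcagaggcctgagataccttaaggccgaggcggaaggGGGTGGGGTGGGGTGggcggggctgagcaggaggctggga
CACCC occurs 2 times before Hba-a2 and 3 times each before Hbb-bt and Alas2, and AGATAA occurs once, before Alas2, on the other strand. RefSeq entries were at hand for 4 of the 6 erythroid members, of which 3 hold CACCC and 1 holds AGATAA. Over all 32851 promoters of this length, 52.0% hold CACCC and 9.99% hold AGATAA on either strand, so CACCC in particular is a common sequence.

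Hba-a2, an alpha chain of adult hemoglobin, read -0.76 and 2.50 in glomeruli of tamoxifen-treated mice, against 5.92 and 4.80 in control glomeruli. The groups did not overlap, and the 2 tamoxifen-treated mice differed from each other by more than the 2 control mice did. Hba-a2 fell by 4.50 ± 0.89 (SE), or 22.6-fold (adjusted p = 0.0473). Hbb-bt, an adult beta globin, read -5.42 and -1.57 in glomeruli of tamoxifen-treated mice, against 2.87 and 1.79 in control glomeruli, and fell by 5.82 ± 1.01, or 56.7-fold (adjusted p = 0.0333). The array at -5.42 was not well above background. Hbb-b2, the other beta globin among the members, read -5.04 and -3.17 in glomeruli of tamoxifen-treated mice, against 2.06 and 0.73 in control glomeruli, and fell by 5.50 ± 0.60, or 45.3-fold (adjusted p = 0.0127). The globin copies are nearly identical in sequence, probe sequences were not compared here, and which copy each probe reads is uncertain.

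Alas2 encodes the erythroid form of the first enzyme of heme synthesis. It was dim in glomeruli of tamoxifen-treated mice, with readings of -7.64 and -5.96, against -1.86 and -3.04 in control glomeruli, at least 9.11-fold lower (fitted difference -4.35 ± 0.63, adjusted p = 0.0229). The remaining erythroid members did not move with these. Slc4a1, the band 3 anion exchanger of the red cell membrane, which intercalated cells of the collecting duct also make in a shorter form, read -3.04 and -2.70 in glomeruli of tamoxifen-treated mice, against -2.36 and -3.22 in control glomeruli, and its groups overlapped (-0.08 ± 0.27, adjusted p = 0.912). Hemgn, a nuclear protein of blood-forming cells, read 4.40 and 4.09 in glomeruli of tamoxifen-treated mice, against 3.72 and 3.85 in control glomeruli (0.46 ± 0.20, adjusted p = 0.27). The Hemgn probe was also between 3.31 and 4.21 on all 8 culture arrays, where the globins were low or dim.

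A further 28 erythroid genes on the array, of which 18 passed the filter, gave 1 call. Ermap, a membrane protein of erythroid cells, fell by 0.63 ± 0.12, or 1.55-fold (adjusted p = 0.0432). The further list had a median difference of 0.23, with 12 means lower and 16 higher. Its other globins were picked out after their values were seen. Hba-a1 read -2.87 and 0.25 in glomeruli of tamoxifen-treated mice, against 3.90 and 2.59 in control glomeruli (adjusted p = 0.0555), and Hbb-bs read -7.41 and -3.59 after tamoxifen, against 0.37 and -0.91 in control glomeruli (adjusted p = 0.0835). Several genes of that list, such as the transferrin receptor gene Tfrc and the heme enzyme gene Urod, are used by other cells as well.

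Of the 10 neutrophil members, 9 had a lower mean and both arrays lower in glomeruli of tamoxifen-treated mice, with a list median of -1.67, and 3 were called lower. Of all genes, 27.7% had both arrays lower and 0.854% were called lower. Promoters of S100a8 and S100a9, whose products pair as calprotectin, are shown because S100a9 had the largest difference between cultures and glomeruli among the neutrophil members. Capitals mark GGAAGT, a core sequence read by the myeloid factor PU.1, on either strand (the other strand appears as ACTTCC). The 250 bases lie at chr3:90668821-90669070 on the plus strand for S100a8 and at chr3:90695722-90695971 on the minus strand for S100a9, both on GRCm38.p6 from RefSeq.
S100a8: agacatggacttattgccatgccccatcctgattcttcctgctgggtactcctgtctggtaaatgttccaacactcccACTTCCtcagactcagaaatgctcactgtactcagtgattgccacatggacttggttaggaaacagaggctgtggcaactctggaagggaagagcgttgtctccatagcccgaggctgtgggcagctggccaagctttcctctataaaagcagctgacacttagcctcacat
S100a9: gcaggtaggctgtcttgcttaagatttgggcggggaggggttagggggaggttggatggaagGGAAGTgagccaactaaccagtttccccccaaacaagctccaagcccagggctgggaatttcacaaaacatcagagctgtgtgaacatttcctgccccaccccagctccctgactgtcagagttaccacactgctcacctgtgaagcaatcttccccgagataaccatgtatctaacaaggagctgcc
GGAAGT occurs once before each gene, on the other strand for S100a8. It is in 4 of the 9 neutrophil promoters that had an entry and in 19.7% of all 32851 promoters.

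Wfdc21, a small secreted protein of the whey acidic protein family made by mouse neutrophils, read -6.59 and -5.08 in glomeruli of tamoxifen-treated mice, with 1 of 2 arrays well above background, against -2.64 and -2.52 in control glomeruli. It fell by 3.26 ± 0.47, or 9.55-fold (adjusted p = 0.0225). Cxcr2, the chemokine receptor that draws neutrophils out of the blood, read -5.52 and -4.91 in glomeruli of tamoxifen-treated mice, against -3.83 and -3.88 in control glomeruli, and fell by 1.36 ± 0.19, or 2.57-fold (adjusted p = 0.0217). Ngp, a granule protein of maturing neutrophils, was dim at -7.61 and -7.70 in glomeruli of tamoxifen-treated mice, against -5.35 and -3.37 in control glomeruli, at least 2.43-fold lower (fitted difference -3.29 ± 0.53, adjusted p = 0.0284). For all 3 the groups stood apart, and the 2 control mice were close for Wfdc21 and Cxcr2 and far apart for Ngp.

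S100a8 and S100a9 were not called. S100a8 read -1.73 and 0.42 in glomeruli of tamoxifen-treated mice, against 1.98 and 2.19 in control glomeruli (-2.74 ± 1.12, adjusted p = 0.25). S100a9 read 0.66 and 2.50 in glomeruli of tamoxifen-treated mice, against 3.80 and 3.94 in control glomeruli (-2.29 ± 0.68, adjusted p = 0.124). For both genes the 2 control mice lay close together and the 2 tamoxifen-treated mice did not. Camp, the antimicrobial peptide cathelicidin, read -4.39 and -4.55 in glomeruli of tamoxifen-treated mice, against -3.17 and -1.82 in control glomeruli (-1.98 ± 0.54, adjusted p = 0.0982). Its other probe, tested on its own, gave -2.23, at least 4.71-fold lower (adjusted p = 0.0723).

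The remaining neutrophil members differed less. Csf3r, the receptor for the granulocyte growth factor G-CSF, read 4.50 and 4.24 in glomeruli of tamoxifen-treated mice, against 4.77 and 4.74 in control glomeruli (-0.38 ± 0.11, adjusted p = 0.126). Ltf, the iron-binding granule protein lactoferrin, read -1.15 and -0.79 after tamoxifen, against -0.34 and -0.59 in control glomeruli (adjusted p = 0.241). Elane, neutrophil elastase, was the exception to the common direction, at -1.86 and -1.76 in glomeruli of tamoxifen-treated mice and -1.96 and -1.71 in control glomeruli (0.03 ± 0.14). The Csf3r and Elane probes were also well above background on all 8 culture arrays.

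Among 22 further neutrophil genes, 21 had a lower mean in glomeruli of tamoxifen-treated mice, with a median of -1.24, and none of the 17 tested was called by limma (7 at an unadjusted p under 0.05). The 2 largest fitted differences were against dim groups and are bounds only. The collagenase gene Mmp8 was dim at -7.45 and -5.96 in glomeruli of tamoxifen-treated mice against -4.08 and -3.62 in control glomeruli, at least 3.46-fold lower (adjusted p = 0.0666). The myeloperoxidase gene Mpo was at least 2.14-fold lower (adjusted p = 0.0779) and passed the filter only through the 2 control glomerular arrays. Retnlg, named here after its values were seen, was above background on all 4 glomerular arrays and read -3.34 and -1.64 after tamoxifen, against -0.65 and -0.30 in control glomeruli (-2.02 ± 0.83, adjusted p = 0.254).

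The B cell members all lay lower. Ms4a1, which encodes the B cell surface protein CD20, read -4.79 and -4.34 in glomeruli of tamoxifen-treated mice, against -2.16 and -3.09 in control glomeruli, and fell by 1.94 ± 0.29, or 3.85-fold (adjusted p = 0.0233). Cd79b, a signalling chain of the B cell receptor, read -3.06 and -2.43 in glomeruli of tamoxifen-treated mice, against -0.69 and -1.67 in control glomeruli (-1.56 ± 0.38, adjusted p = 0.0725), and was called without control mouse 2 (-2.05, adjusted p = 0.0405). Cd79a, its partner chain, was dim at -6.47 and -5.76 in glomeruli of tamoxifen-treated mice, against -5.34 and -5.67 in control glomeruli (-0.61 ± 0.37, adjusted p = 0.435). For each gene both control mice were above both tamoxifen-treated mice, by a small margin for Cd79a, a pattern held by 27.7% of all genes. Of 14 further B cell genes, 9 were tested and none called (2 at an unadjusted p under 0.05). Pou2af1, a coactivator of immunoglobulin genes, and Vpreb3, a chaperone of B cell precursors, had the largest fitted differences among those tested (-1.32 for each, adjusted p = 0.312 and 0.0933).

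Among the T and NK cell members, 1 of 7 was called lower, as were 0.854% of all genes. Cd2, an adhesion receptor of T and NK cells, read -3.92 and -4.18 in glomeruli of tamoxifen-treated mice, against -2.22 and -2.95 in control glomeruli, and fell by 1.47 ± 0.22, or 2.76-fold (adjusted p = 0.0255). Gzma, the killer cell protease granzyme A, read -0.77 and 0.04 after tamoxifen, against 1.41 and 0.18 in control glomeruli (-1.16 ± 0.58, adjusted p = 0.341). Cd3g, a chain of the T cell receptor complex, read -5.48 and -4.92 after tamoxifen, against -4.08 and -4.74 in control glomeruli and its groups did not overlap but lay close (-0.79 ± 0.49, adjusted p = 0.45). Cd8a, the coreceptor of cytotoxic T cells, was dim in every group.

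The probes used for Cd3e, Cd4 and Nkg7 behaved unlike those of Cd2. Cd3e, another chain of the T cell receptor complex, read -1.44 and -1.0 in glomeruli of tamoxifen-treated mice, against -1.14 and -1.34 in control glomeruli (0.01 ± 0.32). Cd4, the coreceptor of helper T cells, read -0.56 and -0.48 after tamoxifen, against -0.24 and -0.84 in control glomeruli (0.02 ± 0.35). Both genes read between -1.64 and 0.12 on every culture array. Nkg7, a granule protein of killer cells, read -0.62 and -0.61 in glomeruli of tamoxifen-treated mice, against 0.02 and -0.31 in control glomeruli (-0.47 ± 0.15, adjusted p = 0.144), and stayed well above background in all cultures. A second Nkg7 probe read -4.82 and -4.33 in glomeruli of tamoxifen-treated mice, against -2.39 and -3.44 in control glomeruli (-1.66, adjusted p = 0.0942), and was dim in every culture group. A second Cd4 probe was dim in both glomerular groups and at day 4. Probes of 1 gene therefore disagreed on whether cultures held its transcript, and the brightest probe, which the rule selects, was the one with signal everywhere.

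**Figure D2:**
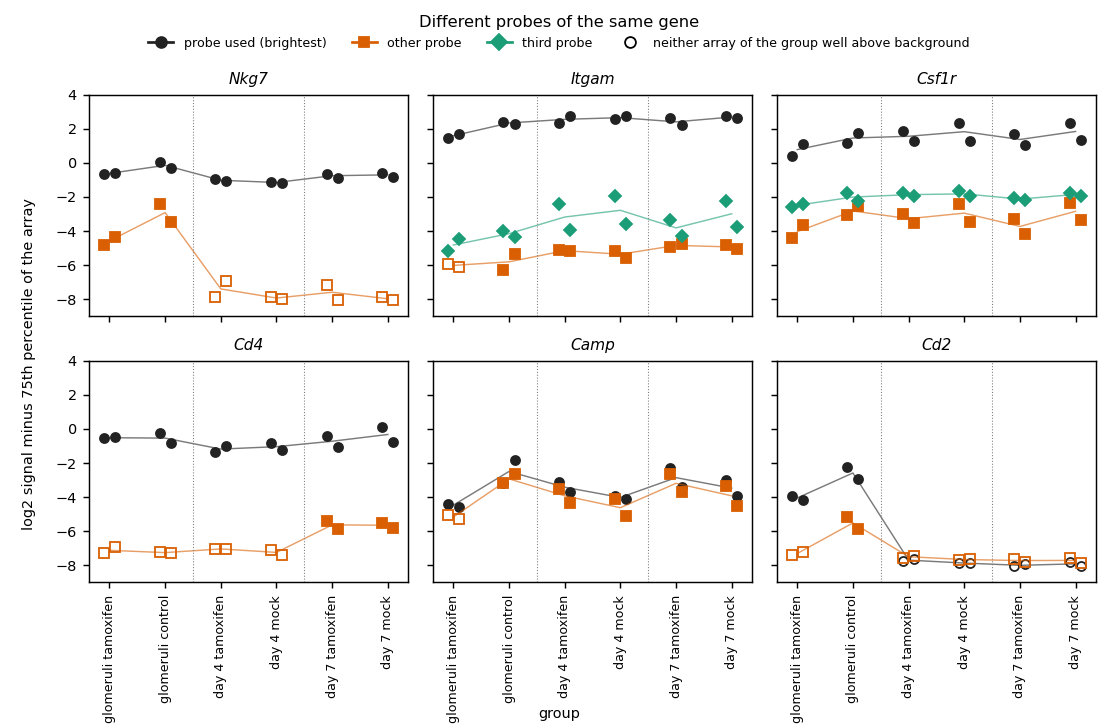
Log2 level relative to the 75th percentile (vertical axis) of every probe of Nkg7, Itgam, Csf1r, Cd4, Camp and Cd2 on the 12 arrays, grouped along the horizontal axis. Open markers show groups in which neither array was well above background. 1 probe of Nkg7 stays above background in cultures, and the other is dim there.

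Of 24 further T and NK cell genes, 21 had a lower mean in glomeruli of tamoxifen-treated mice, with a median of -0.72, and 1 of the 20 tested was called. Cd7, a surface protein of T and NK cells, read -4.66 and -4.36 after tamoxifen, against -3.53 and -3.52 in control glomeruli and fell by 0.99 ± 0.16 (adjusted p = 0.0298).

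**Figure D3:**
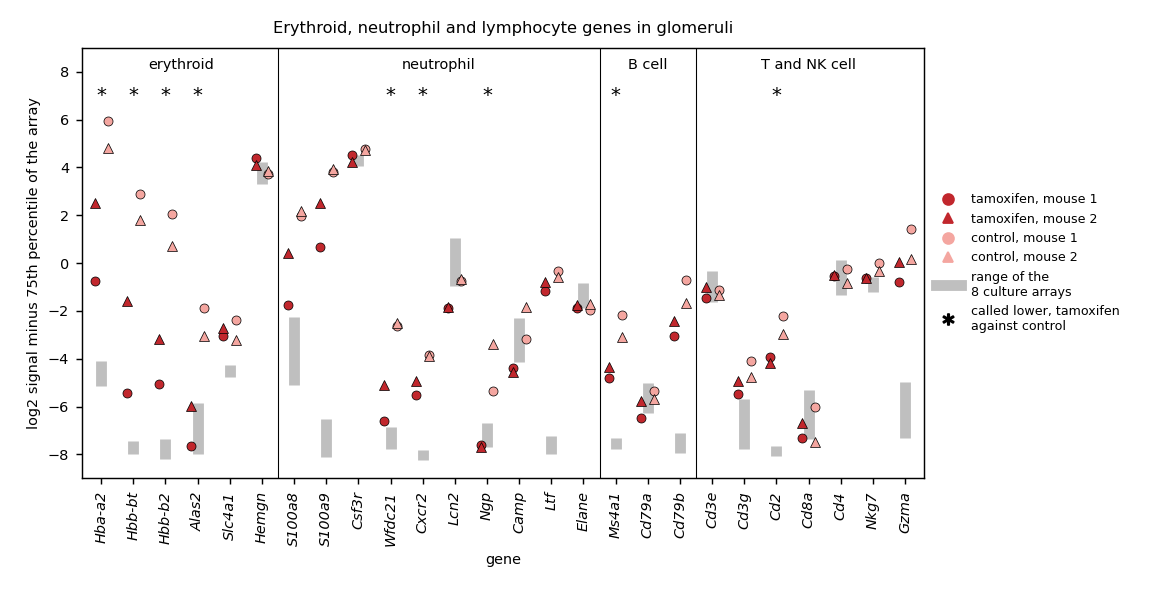
Log2 level relative to the 75th percentile (vertical axis) of the erythroid, neutrophil, B cell, and T and NK cell genes (horizontal axis) in glomeruli. Points are single mice of the tamoxifen-treated and control groups, grey bars span the 8 culture arrays, and an asterisk marks the 9 genes called lower. Globin points of tamoxifen-treated mice lie far below those of control mice, and Elane, Cd3e and Cd4 points lie together.

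All 7 genes shared among leukocytes or myeloid cells lay lower on both arrays of tamoxifen-treated mice, a pattern held by 27.7% of all genes. Their median was -1.0, and none was called by limma (3 had an unadjusted p under 0.05). Ptprc, the pan-leukocyte phosphatase CD45, read -4.63 and -3.98 in glomeruli of tamoxifen-treated mice, against -3.01 and -3.40 in control glomeruli (-1.10 ± 0.25, adjusted p = 0.0624), and was called without tamoxifen-treated mouse 2 (-1.43, adjusted p = 0.032). Coro1a, an actin-binding protein of leukocytes, read -1.28 and -0.58 after tamoxifen, against 0.14 and 0.01 in control glomeruli (-1.0 ± 0.36, adjusted p = 0.196). Itgam, the alpha chain of a phagocyte integrin, read 1.48 and 1.70 after tamoxifen, against 2.42 and 2.26 in control glomeruli (-0.75 ± 0.19, adjusted p = 0.0809), and its other probes gave -0.21 and -0.67.

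In all 7 shared genes the tamoxifen-treated mouse numbered 1 lay below the one numbered 2. Tyrobp, an adaptor of activating myeloid and NK cell receptors, read -2.08 and -0.83 in glomeruli of tamoxifen-treated mice, against -0.12 and 0.03 in control glomeruli (-1.41 ± 0.85, adjusted p = 0.434). Lyz2, lysozyme of myeloid cells, read -4.10 and -2.60 after tamoxifen, against -2.20 and -1.76 in control glomeruli (-1.37 ± 0.70, adjusted p = 0.355). Fcer1g, the shared gamma chain of Fc receptors, and Itgb2, the beta chain of leukocyte integrins, differed by -0.71 ± 0.70 and -0.82 ± 0.54 (adjusted p = 0.654 and 0.47). Over all 45 members, number 1 was the lower of the 2 tamoxifen-treated mice for 33 and the higher of the 2 control mice for 30. Both counts include 5 of 6 erythroid and all 3 B cell genes. Ngp and Camp were among the genes with control mouse 2 higher. The share of all genes was not computed for either count alone. The full order, tamoxifen-treated mouse 1 lowest, then 2, then control mouse 2, then 1, held for 19 members and 8.55% of all genes. That order includes the lower level after tamoxifen.

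Most macrophage genes had a lower mean in glomeruli after tamoxifen, without a call. Of the 12, 9 had a lower mean and 3 a higher one, with a median of -0.52. Both arrays were lower for 5 and higher for 1, patterns held by 27.7% and 20% of all genes. None was called by limma, and 0 had an unadjusted p under 0.05. The SE comes from all 6 groups. For these genes the median gap between arrays of a group was 0.58 and 0.51 in glomeruli, against 1.38 to 1.62 in cultures. A glomerular shift of this size could therefore be missed. The macrophage receptor genes Csf1r, for the growth factor CSF1, and Adgre1, the classical mouse macrophage surface marker, differed by -0.68 ± 0.50 and -0.87 ± 1.02 (adjusted p = 0.535 and 0.72). Csf1r was read by other probes with differences of -1.21 and -0.48. Cd74, the invariant chain of MHC class II, read -0.74 and -0.63 in glomeruli of tamoxifen-treated mice, against 1.1 and -0.15 in control glomeruli (-1.16 ± 0.75, adjusted p = 0.464). Its difference was carried by control mouse 1.

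The scavenger and uptake receptors of macrophages were not called in glomeruli either. Mrc1, the mannose receptor, read 2.12 and 2.16 in glomeruli of tamoxifen-treated mice, against 2.21 and 1.43 in control glomeruli (0.32 ± 1.22). Stab1, the scavenger receptor stabilin-1, which endothelial cells of some vessels also make, read 2.37 and 1.68 after tamoxifen, against 2.66 and 2.31 in control glomeruli (-0.46 ± 0.86). Mertk, a receptor kinase for the uptake of dying cells, read 2.50 and 2.38 after tamoxifen, against 3.12 and 3.08 in control glomeruli (-0.66 ± 0.32, adjusted p = 0.322). Folr2, the folate receptor of resident macrophages, was the macrophage member with both tamoxifen-treated mice higher, at -4.34 and -5.15 after tamoxifen, against -5.98 and -5.55 in control glomeruli (1.02 ± 0.54, adjusted p = 0.374). Lyve1, a hyaluronan receptor of lymphatic vessels and some macrophages, differed by -0.58 ± 1.46. Cd163, the scavenger receptor for hemoglobin bound to haptoglobin, was dim in every group.

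The C1q genes were low in glomeruli. C1qa was dim at -6.01 and -6.73 in glomeruli of tamoxifen-treated mice and read -4.98 and -6.98 in control glomeruli. C1qb read -4.45 and -4.44 in glomeruli of tamoxifen-treated mice, against -4.06 and -4.25 in control glomeruli, and C1qc read -5.34 and -7.27 after tamoxifen, against -5.18 and -5.99 in control glomeruli. Their differences were -0.39 ± 0.95, -0.29 ± 0.76 and -0.72 ± 0.94 (adjusted p = 0.877, 0.886 and 0.752). Of 34 further macrophage, monocyte and dendritic cell genes, 27 had a lower mean after tamoxifen, with a median of -0.58, and none of the 30 tested was called (2 at an unadjusted p under 0.05). The chemokine gene Ccl24 and the monocyte receptor gene Ccr2 had the largest fitted differences (-2.16 and -1.51, adjusted p = 0.4 and 0.461), with Ccl24 above background on 1 of the 4 glomerular arrays. Of 13 platelet genes, 5 had a lower mean and 8 a higher one, with a median of 0.08, and 1 of the 9 tested was called. Of 7 mast cell genes, 3 were lower and 4 higher, with a median of 0.23, and 1 of the 4 tested was called. Ppbp, a platelet chemokine, was dim at -6.60 and -5.84 in glomeruli of tamoxifen-treated mice, against -3.86 and -4.24 in control glomeruli, at least 3.01-fold lower (adjusted p = 0.0228), and passed the filter only through the 2 control glomerular arrays. Tpsb2, a mast cell tryptase, fell by 0.77 ± 0.14 (adjusted p = 0.0368).

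Markers of kidney cells moved beside the blood genes in the same arrays. All 8 tubule markers were tested, 7 had a higher mean after tamoxifen and 2 were called higher, the transporters Slc22a6 (1.65 ± 0.20, adjusted p = 0.015) and Slc12a1 (1.48 ± 0.25, adjusted p = 0.0308). The mean level of the tubule list was 2.15 to 2.61 in glomeruli of tamoxifen-treated mice, against 1.09 to 1.40 in control glomeruli. The mesangial and mural list was at 2.24 to 2.50 after tamoxifen, against 1.32 to 2.12 in control glomeruli, with Acta2, smooth muscle actin, called higher (1.1 ± 0.14, adjusted p = 0.0163). The podocyte list was at 3.66 to 4.18 after tamoxifen, against 4.26 to 4.78 in control glomeruli, with 10 of 10 means lower and Synpo, a podocyte actin-binding protein, called (-1.32 ± 0.24, adjusted p = 0.0368). The endothelial list was at 3.18 to 3.24 after tamoxifen, against 3.40 to 3.69 in control glomeruli, with 9 of 10 means lower and none called. The 6 intercalated cell markers were at -3.15 to -2.97 after tamoxifen, against -3.85 to -3.36 in control glomeruli, with none called. The part of these shifts in the differences of the blood genes was not tested.

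The fit estimates the spread from all 6 groups, and 8 of the 9 calls were lost in at least 1 fit with an array left out. Hbb-b2 stayed called whichever array was left out (highest adjusted p = 0.0417). Wfdc21 and Cxcr2 lost their calls without control mouse 1 (adjusted p = 0.0761 and 0.0734), and Alas2 without tamoxifen-treated mouse 1 or control mouse 1 (at most 0.0835). Ms4a1 lost its call without tamoxifen-treated mouse 1 or without either day 4 tamoxifen culture (at most 0.106). Cd2 stayed called only without either control mouse or either day 7 mock culture (at most 0.079 elsewhere), Hbb-bt only without either tamoxifen-treated mouse (at most 0.124), Ngp only without either control mouse (at most 0.116) and Hba-a2 only without tamoxifen-treated mouse 2 (at most 0.162). For erythroid genes the median gap between arrays of a group was 1.78 and 1.1 in glomeruli, against 0.18 to 0.28 in cultures. For B cell genes it was 0.63 and 0.93, against 0.09 to 0.21. The pooled SE can therefore be too narrow for glomerular differences of these genes, and their adjusted p too small. Neutrophil gaps were 0.31 and 0.17 in glomeruli, against 0.18 to 0.37 in cultures. Fitted on the 4 glomerular arrays alone, none of the 9 passed (adjusted p at least 0.267), and 0 genes of all passed. An exact permutation test of 2 arrays against 2 allows no p below 0.333.

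The cultures differed from glomeruli in which blood genes were read at all. Between mock cultures of both days and control glomeruli, 25 members were called lower and 5 higher, where 63.7% of all genes were called, 25.9% lower and 37.8% higher. The median of all genes in this comparison was 0.18, and 0.41 when arrays were scaled on their medians, and the changes of the members are read against that shift. Of the 45 members, 22 were well above background on all 12 arrays. Another 12 were so on glomerular arrays only: Hbb-bt, Hbb-b2, Alas2, S100a9, Wfdc21, Cxcr2, Ngp, Ltf, Ms4a1, Cd79b, Cd3g and Cd2. These 12 passed the filter on dim probes only through glomerular arrays, and all 12 are among the 25 called lower. The filter thus favoured their calls, and the 25 cannot be weighed against the 25.9% of all genes. Tissue, culture, slide and scan year differ together here and cannot be told apart.

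Erythroid, neutrophil, B cell, and T and NK cell genes were mostly lower in culture, with list medians of -7.19, -3.67, -4.90 and -0.78. Hba-a2 read -4.82 and -4.18 at day 4 and -4.09 and -4.47 at day 7 in mock cultures, 863-fold below the control glomeruli given above (adjusted p = 2.09e-05), and it was still above background on 4 of 4 mock arrays. Hbb-bt was at least 261.9-fold lower, Hbb-b2 at least 136.8-fold and Alas2 at least 9.52-fold. S100a9 was dim in every culture group and at least 762-fold lower than in control glomeruli (adjusted p = 2.31e-06). Ltf was at least 37.7-fold lower, Cd79b at least 22.9-fold, Cd2 at least 8.68-fold, Ms4a1 at least 8.45-fold and Cxcr2 at least 3.59-fold. Gzma differed by -6.74 ± 0.50 with 1 of 4 mock arrays above background, and Cd74 by -5.70 ± 0.65 with 2 of 4, so the sizes of both are not exact.

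Some genes of these lineages kept their signal in culture. Elane was 1.31-fold higher in mock cultures than in control glomeruli (adjusted p = 0.022), a call lost without control mouse 1 and without the mock culture numbered 1 of either day (at most 0.159). Csf3r was 1.32-fold lower, and under median scaling it was not called. Hemgn, Cd3e, Cd4 and Cd79a did not pass the test (-0.28 ± 0.17, 0.01 ± 0.28, -0.14 ± 0.30 and -0.19 ± 0.32). Camp was 2.38-fold lower (adjusted p = 0.0439), a call that held in 4 of 12 fits with 1 array left out and whose difference was -0.57 without control mouse 2.

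The C1q genes went the other way. The promoters of C1qb and C1qc, neighbouring genes for chains of the same complement protein, are shown because both genes were higher in culture than in glomeruli. They lie at chr4:136886201-136886450 and chr4:136892915-136893164 on GRCm38.p6, both on the minus strand, from RefSeq, and capitals again mark GGAAGT on either strand.
C1qb: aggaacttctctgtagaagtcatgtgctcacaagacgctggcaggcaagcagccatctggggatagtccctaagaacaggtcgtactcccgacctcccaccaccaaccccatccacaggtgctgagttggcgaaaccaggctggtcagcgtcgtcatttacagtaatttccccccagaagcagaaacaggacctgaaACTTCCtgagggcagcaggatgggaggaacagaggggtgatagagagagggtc
C1qc: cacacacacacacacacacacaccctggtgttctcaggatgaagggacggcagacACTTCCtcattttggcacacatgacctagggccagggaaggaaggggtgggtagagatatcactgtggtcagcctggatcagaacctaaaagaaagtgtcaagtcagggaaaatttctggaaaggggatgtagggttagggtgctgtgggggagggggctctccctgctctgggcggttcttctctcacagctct
GGAAGT occurs once before each, on the other strand, and in 4 of the 7 macrophage promoters that had an entry, against 19.7% of all promoters. C1qa, which had no entry, read 1.64 and 0.05 at day 4 and 1.30 and -0.32 at day 7 in mock cultures, and was 100-fold higher than in control glomeruli (6.65 ± 0.82, adjusted p = 0.000224), where 1 of 2 arrays was well above background for C1qa and for C1qc. C1qb read 1.77 and 0.25 at day 4 and 1.47 and -0.15 at day 7, 31.8-fold higher (adjusted p = 0.000319). C1qc read 2.34 and 0.86 at day 4 and 2.08 and 0.41 at day 7, 128-fold higher (adjusted p = 0.000158). All 3 stayed called whichever array was left out. Adgre1 was 5.71-fold higher (2.51 ± 0.89, adjusted p = 0.0366), a call held in 6 of 12 such fits and lost without any 1 of the 4 glomerular arrays or without the mock culture numbered 1 of either day (at most 0.147).

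Other macrophage genes were lower in culture than in glomeruli. Mrc1 read -0.61 and -3.08 at day 4 and -1.53 and -4.29 at day 7 in mock cultures and was 18.4-fold lower (-4.20 ± 1.06, adjusted p = 0.0087). Stab1 was 6.44-fold lower (adjusted p = 0.0139) and Mertk 3.71-fold lower (adjusted p = 0.000528). Without control mouse 1, Mrc1 and Stab1 were not called (adjusted p = 0.0619 and 0.079), and Stab1 was at 0.0503 without control mouse 2. Of the shared genes, Ptprc and Coro1a were 3.12-fold and 4.64-fold lower, and Tyrobp, Lyz2, Fcer1g, Itgam and Itgb2 were not called. The other Itgam probes, tested on their own by limma, differed by 0.66 (adjusted p = 0.0485) and 1.27 (adjusted p = 0.123), so its probes disagreed on a call. Of the 11 macrophage members tested, 4 were called higher and 4 lower in culture, where 37.8% and 25.9% of all genes were. In these cultures all 10 podocyte markers were above background in each group, at list means of 0.19 to 0.95, against 4.26 to 4.78 in control glomeruli, and the tubule list was at -5.19 to -4.71.

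**Figure D4:**
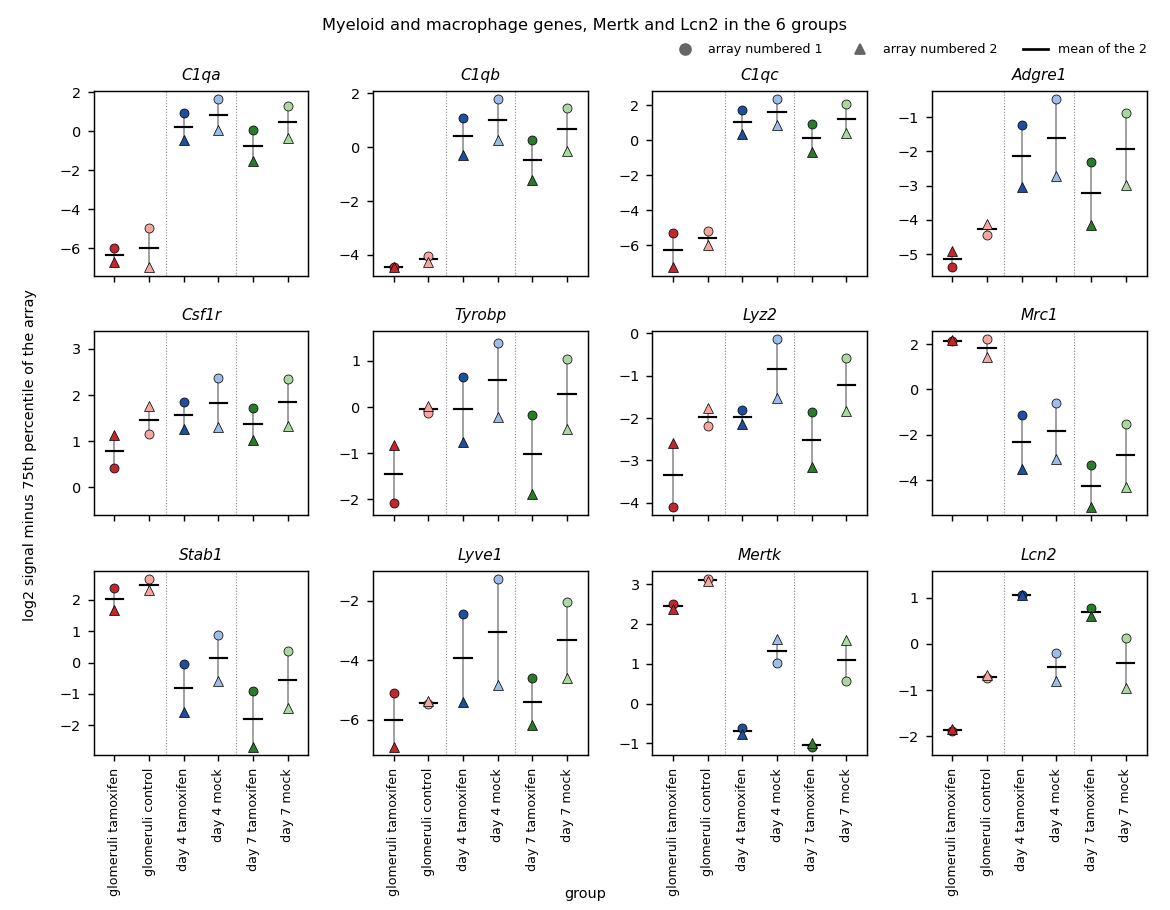
Log2 level relative to the 75th percentile (vertical axes) of 12 genes in the 6 groups, 1 panel per gene. Circles are arrays numbered 1, triangles arrays numbered 2, and bars are group means. The C1q genes are high in all culture groups, and for most macrophage genes the circle lies above the triangle in every culture group. Mertk lies lower in tamoxifen than in mock cultures at both times.

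Within the cultures the array numbered 1 read most macrophage genes higher than the array numbered 2. This held in all 4 culture groups for 8 of 12 macrophage members and 5 of 7 shared members, against 4 of 10 neutrophil members, 1 of 7 T and NK cell members and no erythroid or B cell member. No member had number 2 higher in all 4 groups. Among all genes, 16.3% had number 1 higher in all 4 groups and 20.9% number 2 higher, and the median gap over all genes was -0.03 to 0.01. The gap was 1.38 to 1.62 for C1qa, 1.37 to 1.61 for C1qb, 1.41 to 1.67 for C1qc, 1.83 to 2.23 for Adgre1, 1.84 to 2.75 for Mrc1, 1.45 to 1.83 for Stab1 and 1.41 to 1.72 for Tyrobp. S100a8, a gene of monocytes as well as neutrophils, followed with 1.1 to 2.45. The gap in these genes exceeded the difference between tamoxifen and mock cultures of the same number for C1qa, C1qb, C1qc, Adgre1 and Stab1.

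At day 4, tamoxifen cultures read 11 of 12 macrophage members and 7 of 7 shared members at lower means than mock cultures, with list medians of -0.58 and -0.50, and at day 7 the same counts held with medians of -1.19 and -0.76. The groups mostly overlapped. Of the 43 tested members, both tamoxifen arrays lay below both mock arrays for 6 at day 4, a pattern held by 21.4% of all genes. They lay above them for 14, against 29% of all genes. Of these 14, Hbb-bt, Alas2, Cxcr2, Ngp, Ms4a1, Cd79b, Cd3g and Cd2 were dim in both groups and have no measured difference. At day 7 the counts were 6 below, against 19.1% of all genes, and 4 above, against 22.1%. There Cd3g, among those below, and Wfdc21, among those above, were dim in both groups. None was called at day 4 and 1 at day 7 by limma, and 2 members on each day had an unadjusted p under 0.05, as did 1667 and 1843 of all genes. C1qa read 0.93 and -0.45 in tamoxifen cultures at day 4, against 1.64 and 0.05 in mock cultures, and 0.07 and -1.54 at day 7, against 1.30 and -0.32. Both numbered arrays of C1qa were lower with tamoxifen, at differences of -0.60 ± 0.95 and -1.23 ± 0.95 (adjusted p = 0.897 and 0.692). C1qb and C1qc differed by -0.60 and -0.56 at day 4 and by -1.15 and -1.13 at day 7, none called in this fit, which has no block for the culture number. Lyve1 had the largest mean difference after Mertk at day 7, -2.08 ± 1.46 (adjusted p = 0.657).

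Mertk stood apart from the other macrophage genes. It read -1.09 and -1.0 in tamoxifen cultures at day 7, against 0.58 and 1.60 in mock cultures, and fell by 2.13 ± 0.32, or 4.38-fold (adjusted p = 0.0318). On day 4 its levels were -0.62 and -0.78 in tamoxifen cultures, against 1.02 and 1.63 in mock cultures, a difference of -2.03 ± 0.32 that missed the threshold (adjusted p = 0.0627). The groups did not overlap on either day, and the array numbered 1 was not the higher one in mock cultures, unlike for C1q. The day 7 call held in 3 of 12 fits with 1 array left out, those without either day 4 mock culture or without day 7 mock culture 1, and reached an adjusted p of up to 0.169 in the others. The response of Mertk in glomeruli was not called different from that in cultures (1.42 ± 0.39, adjusted p = 0.123). Without either day 7 mock culture Mertk was also called at day 4 (0.0145), and without day 7 mock culture 1 the difference between responses was called (1.68, 0.0398).

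Lcn2, an iron-trapping granule protein of neutrophils that injured kidney epithelium also makes, differed in direction between glomeruli and cultures. It read -1.88 and -1.85 in glomeruli of tamoxifen-treated mice, against -0.73 and -0.68 in control glomeruli (-1.16 ± 0.33, adjusted p = 0.107). In culture it read 1.06 and 1.05 with tamoxifen at day 4, against -0.20 and -0.79 in mock cultures (1.55 ± 0.33, adjusted p = 0.111), and 0.77 and 0.60 with tamoxifen at day 7, against 0.13 and -0.95 in mock cultures (1.1 ± 0.33, adjusted p = 0.199). The groups did not overlap in any of the 3 comparisons. None of the 3 was called with all 12 arrays. Without either day 7 mock culture the glomerular and day 4 differences were called (adjusted p = 0.0463 and 0.0311), and without day 7 mock culture 1 the day 7 difference was (1.64, adjusted p = 0.0286). Normexp background correction also called the day 4 difference by limma (1.27, adjusted p = 0.0216). That setting called 5058 genes at day 4, 4745 of them higher, so its call says little about Lcn2 itself. The glomerular response minus the mean culture response was -2.49 ± 0.40 (adjusted p = 0.0408).

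The same test of the difference between glomerular and culture responses called 5 members, all with the glomerular response lower, where 1.09% of all genes were called and 0.473% in that direction. Beside Lcn2 these were Hbb-b2 (-5.55 ± 0.74, adjusted p = 0.028), Alas2 (-4.78 ± 0.77, adjusted p = 0.0412), Wfdc21 (-3.62 ± 0.57, adjusted p = 0.0398) and Cxcr2 (-1.38 ± 0.23, adjusted p = 0.044). These 4 were dim in every culture group, so the culture side of the difference has no measured response. Ms4a1, Cd2, Ngp and Hbb-bt came near (adjusted p = 0.0503, 0.0503, 0.0515 and 0.0692), and each was called in at least 1 fit without a glomerular array. With 1 array left out, the calls held in 4 of 12 fits for Hbb-b2 (at most 0.0801), 3 for Alas2 (0.0964), 2 for Lcn2 (0.115), and 1 each for Wfdc21 (0.095) and Cxcr2 (0.0998).

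**Figure D5:**
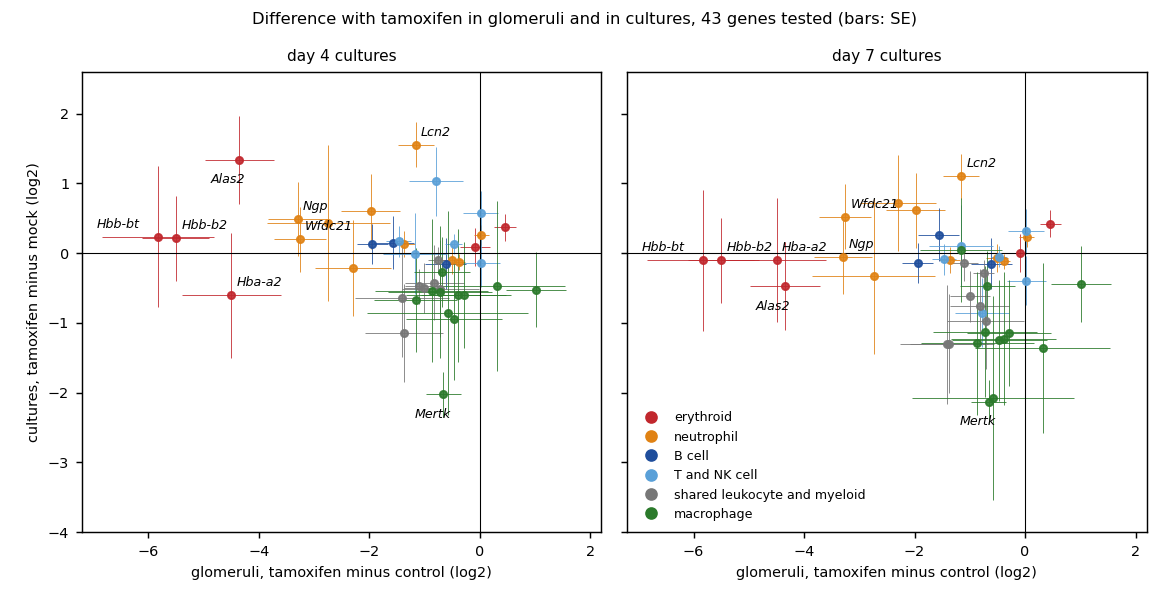
Log2 difference, tamoxifen minus control in glomeruli (horizontal axes) and tamoxifen minus mock in cultures (vertical axes, day 4 and day 7 panels), for the 43 tested genes, coloured by lineage, with standard errors as bars. Globin and Wfdc21 points lie far left with culture differences of -0.60 to 0.52. Hbb-bt, Hbb-b2, Wfdc21, Alas2 and Ngp were dim in every culture group, so their vertical positions are not measured responses. Mertk lies low, and Lcn2 lies left of 0 on the horizontal axis and above 0 on the vertical one.

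Between day 7 and day 4 of mock culture no member was called by limma, where 0.0328% of all genes were called, 2 of 43 members had an unadjusted limma p under 0.05, and 989 of all genes did. Elane had the smallest adjusted p, at -1.03 and -1.22 at day 7 against -1.67 and -1.89 at day 4 (0.66, adjusted p = 0.161).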

How the data were processed

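Total RNA of 12 mouse samples, 2 in each of 6 groups, was labelled with Cy3 and hybridised to one-colour Agilent arrays, per the labels. Spot intensity values (the processed signal, already background-subtracted) came from Agilent's Feature Extraction software, per the file headers (version 11.5.1.1 in the submitters' processing notes). The authors also deposited a table of log2 values, and each of its columns correlated at 1 with the log2 processed signal of its array and differed from the 75th-percentile scaling by a median of 0.094 to 0.1203. Its column medians were -4.139 to -3.814, its stated scale and centring are not given in the sources used here, and it served as an alternative only.

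Control spots and outlier spots (83 to 134 per array) were left out, and spots of 1 probe were averaged, giving 39429 probes. Each array's 75th percentile (505.2 to 759.9) was set to 0 on the log2 scale. A probe was kept where 2 or more of the 12 arrays read it well above background (26421 probes). RefSeq accessions named 26581 probes with 1 symbol and 12848 with none. Of a gene's kept probes the one with the highest mean was used, for 15230 genes, and 8 members had more than 1 probe. Differences came from limma (version 3.58.1, R 4.3.3; moderated linear models, 6 residual and 1.87 prior degrees of freedom, two-sided), and the steps were tested on simulated data, where 46%, 80%, 88% and 96% of genes changed by 1, 2, 3 and 4 log2 units in glomeruli were recovered among 15213 genes. The number of arrays limits the precision.

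Samples were grouped by their labels. All 45 members are named, and of each further marker list up to 4 called genes, or the 2 with the largest differences where none was called. The members and lists were chosen with earlier results of these data known, so none of them is independent evidence. Replicate numbers are shared by all groups, and same-numbered deviations correlated at 0.395 to 0.551 among cultures, 0.21 in glomeruli and -0.038 to 0.086 between glomeruli and cultures. With 2 numbers per comparison the numbers were not taken as pairs. Alternatives covered the background correction, scaling, the filter on dim probes, the choice of probe, the model and each array left out, 23 in all. Promoters came from RefSeq tables on GRCm38.p6, with entries for 31 of the 45 members.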

Additional observations from a re-analysis of the deposited data

Results flagged for a closer look

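For 8 genes the response to tamoxifen differed between glomeruli and cultures by a limma test of the difference itself (glomerular response minus the mean of the day 4 and day 7 responses, log2). Among the members these were Hbb-b2 (-5.55), Alas2 (-4.78), Wfdc21 (-3.62), Cxcr2 (-1.38) and Lcn2 (-2.49). Among the further genes they were Mmp8 (-4.65, adjusted p = 0.0477), Cd7 (-1.13, adjusted p = 0.0493) and Ppbp (-2.24, adjusted p = 0.0455). Lcn2 and Mmp8 were above background in culture and lay higher there with tamoxifen on both days. Neither was called in culture at day 4 or day 7 by limma (adjusted p = 0.111 and 0.199 for Lcn2, 0.272 and 0.458 for Mmp8). Mmp8 read -2.38 and -2.14 in tamoxifen cultures against -3.98 and -4.88 in mock cultures at day 4, and -2.65 and -3.01 against -3.33 and -5.17 at day 7. Mmp8 was dim in glomeruli of tamoxifen-treated mice, so the size of its difference between responses is not exact. Hbb-b2, Alas2, Wfdc21, Cxcr2 and Ppbp were not well above background in any culture group, so they have no measured response there. Alas2 and Ppbp also entered the test only through the control glomerular arrays. No group held 4 or more arrays, so single arrays were not screened within groups.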

How the results depend on the processing

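Each comparison was refitted under other settings, 3 of them chosen after seeing the data: normexp with negative control spots, a block shared by the cultures only, and single probes.

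Members called in glomeruli numbered 9, against 2 with normexp, 0 with only the 4 arrays compared and 4 to 8 with 1 array left out. All genes called there numbered 396, against 5 with normexp, 258 with no filter, 0 with only the arrays compared, 869 with negative-control normexp and 89 to 495 with 1 array left out. At day 4, members numbered 0, against 20 with normexp, 1 each with trend and robust moderation and with negative-control normexp, and 0 to 2 with 1 array left out. Genes numbered 32 there, against 5058 with normexp, 52 with quantile normalization, 82 with trend and robust moderation, 0 with only the arrays compared, 111 with negative-control normexp and 7 to 78 with 1 left out. At day 7, members numbered 1, against 0 with only the arrays compared and 0 to 2 with 1 left out, and genes 148, against 57 with normexp, 1 with only the arrays compared and 9 to 238. For the difference between responses, members numbered 5, against 1 with normexp, 1 with no filter, 11 with negative-control normexp and 0 to 7, and genes 166, against 4, 106, 534 and 6 to 368. Members called between mock cultures and control glomeruli stayed between 26 and 30 with 1 array left out, and genes between 8252 and 9596 of 9704. Between the mock days genes numbered 5, against 0 with normexp, with trend and robust moderation, with only the arrays compared and with negative-control normexp, 3 with quantile normalization, 10 with no filter and 0 to 7 with 1 left out.

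Lineage medians in glomeruli under normexp were -2.65 (erythroid), -0.66 (neutrophil), -0.68 (B cell) and -0.63 (shared), and turned to 0.008 for T and NK cell and 0.05 for macrophage genes. The neutrophil median was -0.90 with negative-control normexp. With 1 array left out the medians were -5.66 to -3.19, -1.85 to -1.26, -2.05 to -1.07, -0.96 to -0.31 (T and NK cell), -1.35 to -0.64 (shared) and -0.678 to -0.073 (macrophage). At day 4 normexp reversed Ltf (1.38), Cd79a (1.30), Gzma (1.38), Ptprc (1.09) and Folr2 (1.16). The normexp fit put the background mean below 0 on 3 arrays (-29.5 on tamoxifen-treated mouse 1, -258 and -25 on the day 4 tamoxifen cultures), against 12.5 to 19 on the others.

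With the replicate number as a block, in place of no pairing, the members called were 8 in glomeruli and 1 at day 4 (Mertk), and the genes were 466 in glomeruli, 106 at day 4, 251 at day 7, 258 for the difference between responses and 8 between the mock days. With the block in cultures only, members were 8, 3, 4 and 8 for glomeruli, day 4, day 7 and the difference, and genes 563, 269, 500, 443 and, between the mock days, 1. Members it called were C1qb at day 4 and day 7 (adjusted p = 0.0485 and 0.00651), Lcn2 and Mertk at day 4 (0.0377 and 0.0238), and Adgre1 and Stab1 at day 7 (0.0229 and 0.0436), beside Mertk. With median scaling the split of called genes, higher against lower, was 281 and 80 in glomeruli (266 and 130 as reported), 26 and 17 at day 4 (14 and 18), 113 and 71 at day 7 (69 and 79), and 70.4% higher against 59.3% between mock cultures and control glomeruli. The slide as a block could not be fitted. Dim probes hold only bounds.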
